A study of Homo sapiens and Mus musculus with 33 samples.

Results

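A pair of mouse single-cell libraries was compared: naive T cells at 0 h, before stimulation, and naive T cells at 2 h of stimulation with antibodies to CD3 and CD28. They are 2 of the 33 samples of the series, and 2 of its 6 naive T single-cell libraries. The 0 h library held 1777 cell barcodes and the 2 h library 1997, and all of these barcodes were used. UMIs (unique molecular identifiers, each standing for 1 captured RNA molecule) were summed per gene over the barcodes of a library and divided by the library total, and the result was scaled to a total of 1000000 (CPM).

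The study tested NOTE-seq, a droplet-based 3′ end single-cell assay in which RNA made during a pulse of 4-thiouridine (4sU), a uridine analogue, is marked by a T-to-C change in the reads. Both libraries are titled as 4sU labelled and come from lymph node T lymphocytes. The course continues at 4, 6 and 8 h, and 1 more naive T library, made without 4sU as a background for sequence variants, carries no time and no stimulation in its label. Strain, age, sex, the number of animals, the antibody doses and the length of the 4sU pulse are not stated in the labels. Here the matrices count all UMIs of a gene, old and new RNA together, so each value is a level of total RNA.

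A naive T cell is a resting lymphocyte that circulates between blood and lymph nodes and is held in a quiescent state by transcription factors such as KLF2, FOXO1, TCF7 and LEF1. Engagement of the T cell receptor with CD28 starts calcium, MAP kinase and NF-kappaB signalling. Within the first hours this switches on immediate early genes, which need no new protein synthesis, and then cytokines, receptors and the machinery for growth, while messages of the resting programme are lost.

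Each time is represented by 1 library, so no test between times was possible and no p-value is given. Intervals are 95% exact intervals, and they cover counting error only, not the variation between animals or cultures. A gene was counted as higher or lower at 2 h where its CPM stood at least 2-fold apart and it had at least 50 UMIs in both libraries together. Where a gene had 0 UMIs in a library, 3 UMIs took their place in the ratio, which is then a lower bound. Such a bound, written as "at least", does not include counting error. The interval can start under it, as for Il2ra (log2 4.26 against a bound of 4.59).

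The 6 naive T libraries were shallow, with 710533 to 1358518 UMIs and a median of 338 to 659 UMIs per barcode (375 at 0 h and 338 at 2 h). Mitochondrially encoded genes took 0.861% of the UMIs at 0 h and 0.949% at 2 h, and cytosolic ribosomal proteins 52.0% and 50.5%. The library without 4sU stood apart from the 5 labelled ones, with 1.67% mitochondrial and 42.3% ribosomal protein UMIs. The 0 h and 2 h libraries shared 5 barcode names. T cell markers were present at both times: Cd3e had 377 and 579.6 CPM and Trbc2 1178 and 1233 CPM.

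Of 3188 genes that reached 50 UMIs in the pair, 391 (12.3%) were at least 2-fold higher at 2 h and 564 (17.7%) at least 2-fold lower, with a median log2 ratio of −0.05 over all of them. The counts of each gene list below are to be read beside these 2 shares. For scale, the library without 4sU set against the 0 h library by the same rule had 230 of 4535 genes higher (5.07%) and 23 lower (0.507%). With ribosomal protein genes left out of the library totals that split was 105 higher and 82 lower. In summed libraries, fewer cells that express a gene and less RNA of it per cell cannot be told apart.

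**Figure D1:**
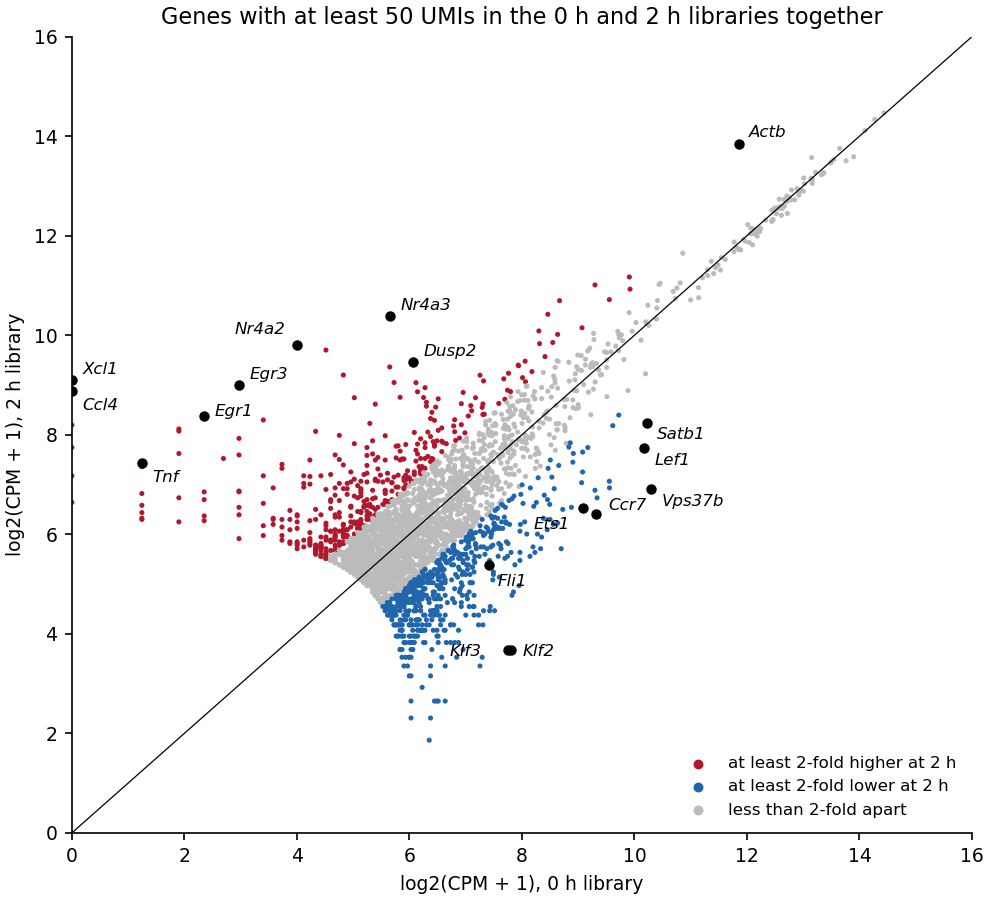
Level of each of the 3188 counted genes at 0 h (x axis) and 2 h (y axis), both as log2(CPM + 1), with 1 point a gene, colour for at least 2-fold higher (391) or lower (564) at 2 h, and the diagonal marking equal levels. Xcl1 and Ccl4 lie on the left edge, with 0 UMIs at 0 h, while Klf2 and Klf3 lie far under the diagonal.

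The 3 genes that mark the comparison all stood far apart between the libraries. Egr1 (ENSMUSG00000038418), a zinc finger transcription factor induced by MAP kinase signalling, had 3 UMIs at 0 h and 250 at 2 h, or 4.10 and 329 CPM, a log2 ratio of 6.33 (interval 4.76 to 8.61). Tnf (ENSMUSG00000024401), an inflammatory cytokine, had 1 UMI and then 130, or 1.37 and 171 CPM (log2 6.97, interval 4.46 to 12.28). Klf2 (ENSMUSG00000055148), which keeps naive T cells quiescent and circulating, went the other way, from 162 UMIs and 222 CPM to 9 UMIs and 11.9 CPM (log2 −4.22, interval −5.38 to −3.26), 18.7-fold lower. In the later libraries the activation genes and Klf2 parted: Egr1 stood at 64.0, 18.9 and 5.63 CPM and Tnf at 59.4, 21.2 and 11.3 CPM at 4, 6 and 8 h, both far under their 2 h level, whereas Klf2 stayed at 10.3, 7.86 and 5.63 CPM.

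Immediate early factors, the first transcription factors switched on by a signal, had a summed level of 773 CPM at 0 h and 5568 CPM at 2 h (7.21-fold) over all 26 listed genes. The sum was 2100.1, 903 and 493 CPM at 4, 6 and 8 h, so the 2 h library held the peak of the sampled course. Among the 16 members with at least 50 UMIs, 12 were higher and 1 lower, with a median log2 ratio of 4.21 against −0.05 over all counted genes. Such counts describe the members only, here and in the lists below. A gene with few UMIs at 0 h could reach 50 UMIs only through its 2 h level.

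Among the EGR factors, Egr3 had 5 and 386 UMIs (6.84 and 508 CPM, log2 6.22, interval 4.98 to 7.85). Egr2, which with Egr3 restrains T cell receptor responses, had 0 and 162 UMIs, at least 52.0-fold higher at 2 h. Nab2, the corepressor that binds EGR proteins, had 12.3 and 169 CPM (log2 3.78) and was back at 27.4 CPM by 4 h. Egr1, Egr2, Egr3 and Nab2 thus each had their highest level at 2 h among the 5 labelled libraries.

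The NR4A orphan nuclear receptors, direct readouts of receptor signal strength, were likewise highest at 2 h. Nr4a1 stood at 21.9 CPM at 0 h and 833 CPM at 2 h (log2 5.25, interval 4.54 to 6.07). Nr4a2 stood at 15.0 and 894 CPM (log2 5.89, interval 5.05 to 6.90). Nr4a3 already had 36 UMIs at 0 h and 1015 at 2 h (log2 4.76, interval 4.28 to 5.29). By 8 h Nr4a1, Nr4a2 and Nr4a3 were at 40.8, 80.2 and 59.1 CPM, far under their 2 h levels.

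Fosl2, Ier2 and Junb were less far apart than the EGR and NR4A genes just named. The AP-1 subunit Fosl2 stood at 112 and 236 CPM (log2 1.07), Ier2, a rapidly induced nuclear protein, at 99.8 and 225 CPM (log2 1.17), and Junb at 137 and 149 CPM (log2 0.12, interval −0.28 to 0.53). Fos, the classic partner of Jun, had 1 UMI at 0 h and 5 at 2 h, too few for a direction at this depth (log2 2.27, interval −0.89 to 7.83). Atf3, a stress-induced bZIP factor, had 1 and 59 UMIs (log2 5.83), and Myc, the driver of T cell growth, 3 and 78 (log2 4.65, interval 3.05 to 6.95). Klf6 was the 1 member counted as lower, with 66 UMIs at 0 h and 4 at 2 h (log2 −4.10, interval −6.02 to −2.67), the direction of Klf2 and Klf3.

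**Figure D2:**
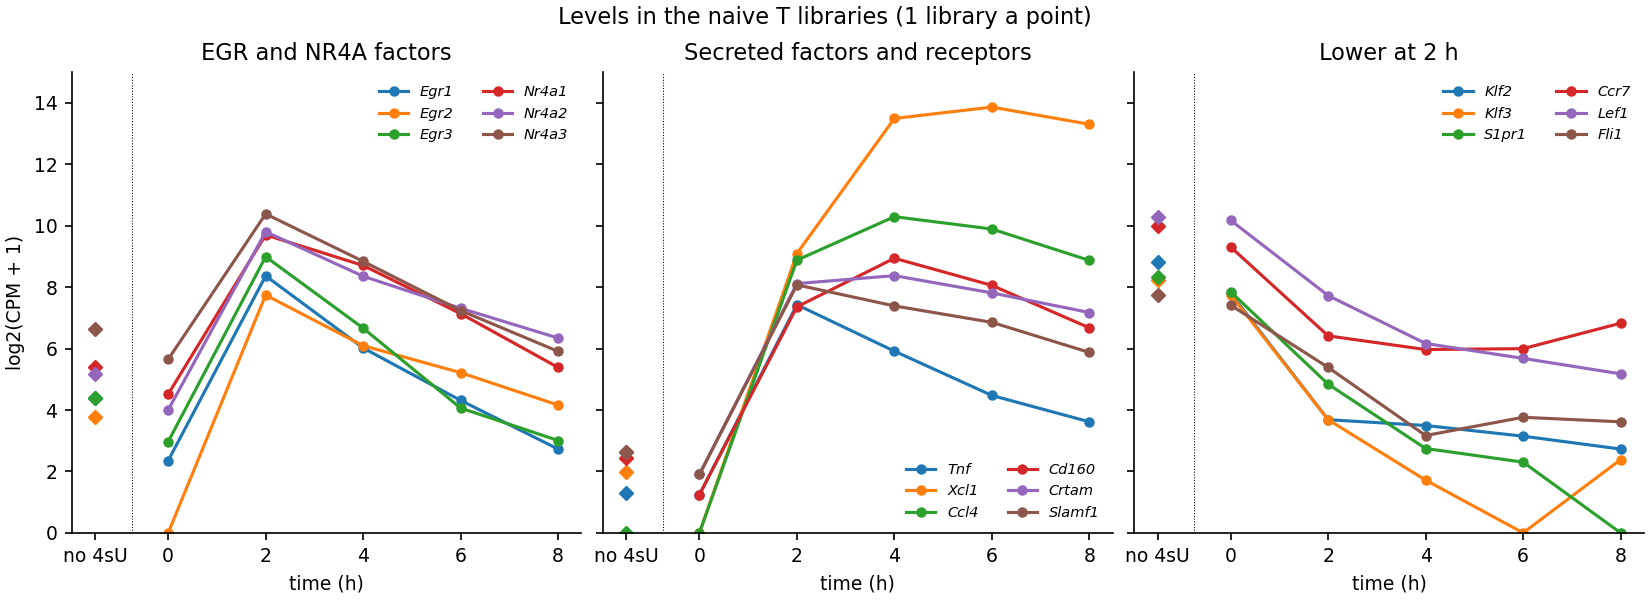
Level of 18 genes as log2(CPM + 1) (y axis) by time in hours (x axis), 1 library a point, with the library without 4sU as diamonds at the left of each panel, for EGR and NR4A factors, secreted factors and receptors, and genes lower at 2 h. EGR and NR4A genes are highest at 2 h, Xcl1 goes on to 14924 CPM at 6 h, and Klf2 stays between 5.63 and 11.9 CPM from 2 h on.

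The early factors were spread over most barcodes of the 2 h library. At least 1 UMI of the 26 genes was found in 462 of 1777 barcodes at 0 h (26.0%, exact binomial interval 24.0 to 28.1) and in 1550 of 1997 at 2 h (77.6%, interval 75.7 to 79.4). Of the 565 early factor UMIs at 0 h, Jund had 102, Junb 100, Fosl2 82, Ier2 73 and Klf6 66, against 3 for Egr1. The 0 h share thus reflects mostly members already present in resting cells. Since depth differed, each barcode was also thinned to 200 UMIs, which left out 144 shallower barcodes at 0 h and 331 at 2 h. The thinned shares were 13.4% at 0 h and 63.7% at 2 h, then 33.1%, 16.8% and 9.73% at 4, 6 and 8 h, and 19.6% in the library without 4sU. Of the thinned 2 h barcodes 34.0% had 1 such UMI, 18.5% had 2 and 11.2% had 3 or more, against 12.4%, 0.735% and 0.245% at 0 h. No second cell type in these libraries was large enough to give a background share from free RNA.

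**Figure D3:**
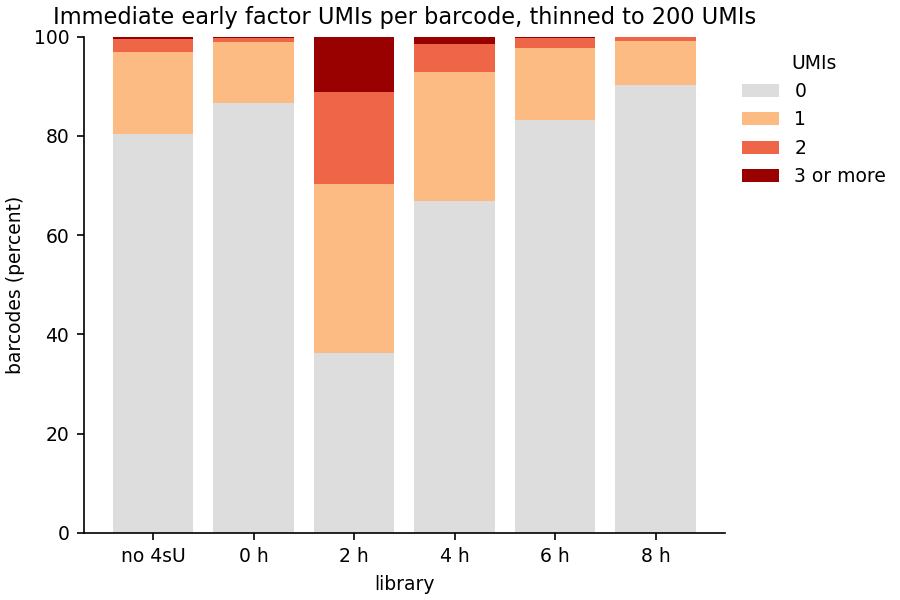
Barcodes of each naive T library (percent, y axis from 0) by the number of immediate early factor UMIs they held, after thinning to 200 UMIs a barcode, stacked as 0, 1, 2 and 3 or more. At 2 h 63.7% of barcodes held at least 1, against 13.4% at 0 h and 9.73% at 8 h.

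The thinned 2 h barcodes without an early factor UMI did not look like 0 h barcodes in other genes. The quiescence genes described further on stood at 4066 CPM in them (interval 3715 to 4442), against 8812 CPM in the matching 0 h barcodes (interval 8469 to 9165). In 2 h barcodes with 1, 2 and 3 or more early factor UMIs the same genes stood at 3392, 3523 and 3529 CPM. Lef1, a transcription factor of naive T cells, stood at 364 CPM in 2 h barcodes with 0 early factor UMIs (interval 264 to 488) and at 150 CPM in those with 1 (interval 87.5 to 240), against 1156 CPM in the 0 h barcodes with 0. In 2 h barcodes with 2 it stood at 97.4 CPM (interval 35.7 to 212) and in those with 3 or more at 214 CPM (interval 92.3 to 421), which overlaps the interval of the barcodes with 0. At 200 UMIs a barcode, 0 UMIs of the list does not show that a cell lacked these RNAs.

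Feedback on MAP kinase signalling differed between 2 phosphatases of the same family. Dusp2, a nuclear phosphatase that inactivates ERK, had 48 UMIs at 0 h and 536 at 2 h (65.6 and 706 CPM, log2 3.43, interval 3.00 to 3.88). Dusp10, which acts on JNK and p38, had 111 and 7 UMIs (152 and 9.22 CPM, log2 −4.04, interval −5.39 to −2.95) and stood at 0 at 6 h. Spry1, a receptor tyrosine kinase inhibitor, had 0 UMIs at 0 h and 45 at 2 h, and Dusp5 had 18 in each library. Only 3 of the 13 listed genes had 50 UMIs, and over all 13 the summed level was 320.0 and 888 CPM.

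Cytokines and chemokines, the secreted and membrane-bound messengers of T cells, had a summed level of 137 CPM at 0 h and 1570.2 CPM at 2 h over all 20 listed genes. The sum was 13415, 16498 and 11148 CPM at 4, 6 and 8 h, most of it Xcl1. Without Xcl1 the other 19 genes summed to 137 CPM at 0 h, 1024 at 2 h and 1866, 1574 and 1022 CPM at 4, 6 and 8 h. Of 6 members with at least 50 UMIs, 5 were higher and 1 lower, with a median log2 ratio of 6.40 (genes at 0 taken at their bound). The 5 had 0 to 2 UMIs at 0 h and reached 50 only through their 2 h level, so the minimum fixed their direction. The count and the median describe these members only.

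Xcl1, a chemokine that attracts cross-presenting dendritic cells, had 0 UMIs at 0 h and 415 at 2 h, at least 133-fold higher, and then 11549, 14924 and 10126 CPM at 4, 6 and 8 h. It was seen in 0 of 1777 barcodes at 0 h, which by a limit of 3 barcodes allows a share of up to 0.169%, and in 12.8% at 2 h. Ccl4, a chemokine for macrophages and T cells, had 0 and 357 UMIs, at least 115-fold higher, and was seen in 11.4% of 2 h barcodes. Ccl4 stood at 470.3 CPM at 2 h and at 1256, 951 and 467 CPM at 4, 6 and 8 h, so its 8 h level lay near that of 2 h, whereas Xcl1 was many times higher in each later library than at 2 h.

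Members of the TNF family split by timing. Tnfsf11 (RANKL) had 1.37 CPM at 0 h, 85.6 at 2 h and 14.8, 10.2 and 5.63 at 4, 6 and 8 h. Cd40lg, the helper signal to B cells, had 2 and 57 UMIs (75.1 CPM at 2 h, log2 4.78, interval 2.86 to 7.86) and 13.7 CPM at 4 h. Lta stood at 1.37 and 38.2 CPM with its highest level at 4 h (67.4 CPM), whereas Ltb, its membrane partner expressed by resting lymphocytes, stood at 111 and 50.1 CPM (log2 −1.15, interval −1.74 to −0.57). Tnf, Tnfsf11 and Cd40lg were highest at 2 h, and Ltb was lower at 2 h than at 0 h.

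Il2 and Ifng, textbook T cell cytokines, were hardly seen at this depth. Il2 had 0 UMIs at 0 h and 11 at 2 h, and Ifng 0 in both libraries, where 3 UMIs correspond to 4.10 CPM at 0 h and 3.95 CPM at 2 h. Ccl3 had 0 and 26 UMIs and stood at 183, 302 and 319 CPM at 4, 6 and 8 h.

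Activation receptors on the cell surface had a summed level of 779.5 CPM at 0 h and 2408 CPM at 2 h over all 21 genes, with a peak of 4785 CPM at 4 h. Of 14 with at least 50 UMIs, 9 were higher and 1 lower (median log2 1.70). Of the 9, Cd160, Crtam, Slamf1, Tnfrsf9, Il2ra and Cd69 reached 50 UMIs only through their 2 h level. Cd160, an immunoglobulin-family receptor for HVEM, had 1 and 124 UMIs (log2 6.90, interval 4.40 to 12.22), Crtam, an adhesion receptor of activated cytotoxic cells, 2 and 210 (log2 6.66, interval 4.79 to 9.72), and Slamf1, a self-binding costimulatory receptor, 2 and 204 (log2 6.62, interval 4.75 to 9.67). Slamf1 was highest at 2 h, whereas Cd160 and Crtam were highest at 4 h, at 491 and 331 CPM.

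Cd69, which retains activated cells in the lymph node, stood at 17.8 and 179 CPM (log2 3.33, interval 2.51 to 4.28). Il2ra, the high-affinity chain of the IL-2 receptor, had 0 and 75 UMIs, at least 24.1-fold higher, and Tnfrsf9 (4-1BB), a costimulatory receptor, 3 and 87 UMIs before reaching 1758 CPM at 4 h. Pdcd1 (PD-1), an inhibitory receptor, had 1 and 33 UMIs, and Sema7a, a membrane semaphorin, 0 and 222, at least 71.3-fold higher. Pdcd1 had fewer than 50 UMIs in the pair, and Sema7a is not on the receptor list. Neither is among the 9. The 1 counted as lower was Tnfrsf18 (GITR), at 76.6 CPM at 0 h, 13.2 at 2 h and 69.7 at 4 h (log2 −2.54, interval −3.68 to −1.56). The other 4 counted receptors were less than 2-fold apart, with log2 ratios of 0.02 for the costimulator Icos, −0.25 for the inhibitor Ctla4, −0.60 for Il2rb, the IL-2 receptor beta chain, and −0.74 for Cd28, which 1 of the stimulating antibodies binds.

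Several of the genes just described are also carried by memory, effector and natural killer cells. The 12 memory and effector T markers summed to 267 CPM at 0 h and 473 CPM at 2 h (all 6 naive T libraries 267 to 735), with a UMI of 7 and 12 of the 12. Nkg7, a cytotoxic granule protein, stood at 68.4 and 205 CPM and Ccl5, a chemokine of memory CD8+ cells, at 56.1 and 54.0 CPM. The 10 natural killer and innate T markers summed to 122 and 165 CPM (all 6 libraries 81.8 to 227), with Ncr1, Klra8 and Tcrg-C1 at 0 UMIs in both libraries. Of these, Prf1, the pore-forming perforin that activated CD8+ cells make too, stood at 10.9 and 79.0 CPM (log2 2.85) and Klrd1 (CD94) at 98.5 and 59.3 (log2 −0.73). The part of such cells in the levels of cytokines and receptors was not tested.

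NF-kappaB subunits and regulators stood at 961 CPM at 0 h and 2820.2 CPM at 2 h over 19 genes. Of 15 with at least 50 UMIs, 10 were higher and 2 lower (median log2 1.73), beside 12.3% and 17.7% over all counted genes. Of the 10, Bcl2a1b, Nfkbid, Malt1 and Nfkbib reached 50 UMIs only through their 2 h level, so the minimum fixed their direction. Subunits were among the higher ones: Nfkb1 stood at 152 and 586 CPM (log2 1.95, interval 1.65 to 2.26), Nfkb2 at 60.2 and 223 (log2 1.89) and Rel at 43.8 and 145 (log2 1.73). Nfkbid, an atypical nuclear inhibitor protein, had 20 and 446 UMIs (log2 4.42, interval 3.78 to 5.15), and Bcl2a1b, a survival protein of the BCL2 family, 2 and 149 (log2 6.17). Bcl2a1b belongs to a set of near-identical copies, so its share of their UMIs is uncertain.

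The A20 brake on the pathway was lower. Tnfaip3 (A20), a ubiquitin-editing enzyme that limits NF-kappaB, had 83 UMIs at 0 h and 8 at 2 h (114 and 10.5 CPM, log2 −3.43, interval −4.69 to −2.38). Its partner Tnip1 stood at 131 and 40.8 CPM (log2 −1.68, interval −2.32 to −1.09). Malt1, the protease of the receptor-proximal complex that cleaves A20, was higher, at 20.5 and 144 CPM (log2 2.81), while Nfkbia, the classical feedback inhibitor, stood at 57.4 and 61.9 CPM (log2 0.11, interval −0.52 to 0.74).

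Transcription factors of the calcium branch were split as well. Nfatc1, the inducible NFAT, stood at 31.5 CPM at 0 h and 225 at 2 h (log2 2.84, interval 2.21 to 3.54), and Nfatc3, a NFAT of resting cells, at 141 and 19.8 (log2 −2.83, interval −3.72 to −2.05). Irf4, which scales T cell responses with receptor signal, had 1 and 72 UMIs (log2 6.12, interval 3.59 to 11.44), and Irf8 2 and 38. Over the 15 listed genes the sums were 845 and 968 CPM. Of 7 with at least 50 UMIs 2 were higher, 2 lower and 3 less than 2-fold apart. Irf4 and Nfatc1 were counted only through their 2 h level. The list is too short to be set apart from the 12.3% higher and 17.7% lower over all counted genes.

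Genes of quiescence and circulation stood at 8915 CPM at 0 h and 3687 CPM at 2 h over 30 genes, 2.42-fold lower, and at 2395, 1984 and 1606 CPM at 4, 6 and 8 h. Of 27 with at least 50 UMIs, 17 were lower and 1 higher, with a median log2 ratio of −1.77 against −0.05 over all counted genes. Only 3 of the 30 genes had fewer than 50 UMIs in the pair, so the list was covered more fully than the activation lists.

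Receptors that guide naive T cells were lower at 2 h. Ccr7, the chemokine receptor for lymph node entry, had 463 and 64 UMIs (633 and 84.3 CPM, log2 −2.91, interval −3.31 to −2.53). S1pr1, the receptor for exit and a target of KLF2, stood at 229.8 and 27.7 CPM and at 5.71, 3.93 and 0 CPM at 4, 6 and 8 h (log2 −3.05 at 2 h, interval −3.78 to −2.40). Il7r, which carries the survival signal of naive cells, stood at 321 and 51.4 CPM (log2 −2.65, interval −3.17 to −2.15). Ccr7 was the only one of these 3 with a higher level at 8 h (113 CPM) than at 2 h.

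Among transcription factors of the resting state, Klf3 went from 157 to 9 UMIs (log2 −4.18, interval −5.33 to −3.22), nearly the values of Klf2. Lef1 stood at 1157 and 211 CPM (log2 −2.46, interval −2.71 to −2.21), Satb1, which shapes chromatin in the T lineage, at 1194 and 302 (log2 −1.98), and Tcf7 at 350.1 and 103 (log2 −1.77). Foxp1 stood at 784 and 289.8 CPM (log2 −1.44) and Bach2 at 729 and 435 (log2 −0.75, interval −0.95 to −0.54), the latter less than 2-fold apart. Foxo1, which drives Klf2, was under 2-fold as well, at 101 and 73.8 CPM (log2 −0.46). Id3, an inhibitor of E proteins, had 5 and 27 UMIs, under the minimum of 50, with the higher level at 2 h (log2 2.38).

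Several members that restrain growth or metabolism were lower at 2 h. Cdkn1b (p27), a cell cycle inhibitor, had 60 and 6 UMIs (log2 −3.38, interval −4.88 to −2.17), Txnip, an inhibitor of glucose uptake, 115 and 13 (log2 −3.20), Pik3ip1, an inhibitor of PI3 kinase, 81 and 10 (log2 −3.07), and Tsc22d3 (GILZ), a glucocorticoid-induced suppressor, 116 and 16 (log2 −2.91). The antiproliferative Btg1, Btg2 and Tob2 were each less than 2-fold apart, Btg1 at 358 and 317 CPM (log2 −0.17, interval −0.43 to 0.08), Btg2 at a log2 ratio of 0.20 and Tob2 at 0.28. Gimap5, a GTPase needed for lymphocyte survival, was the 1 member at least 2-fold higher, at 69.7 and 465 CPM (log2 2.74, interval 2.31 to 3.19). Its relatives Gimap3, Gimap4 and Gimap6 had log2 ratios of −0.39, 0.04 and −0.53, so Gimap5 stood alone among the 4.

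**Figure D4:**
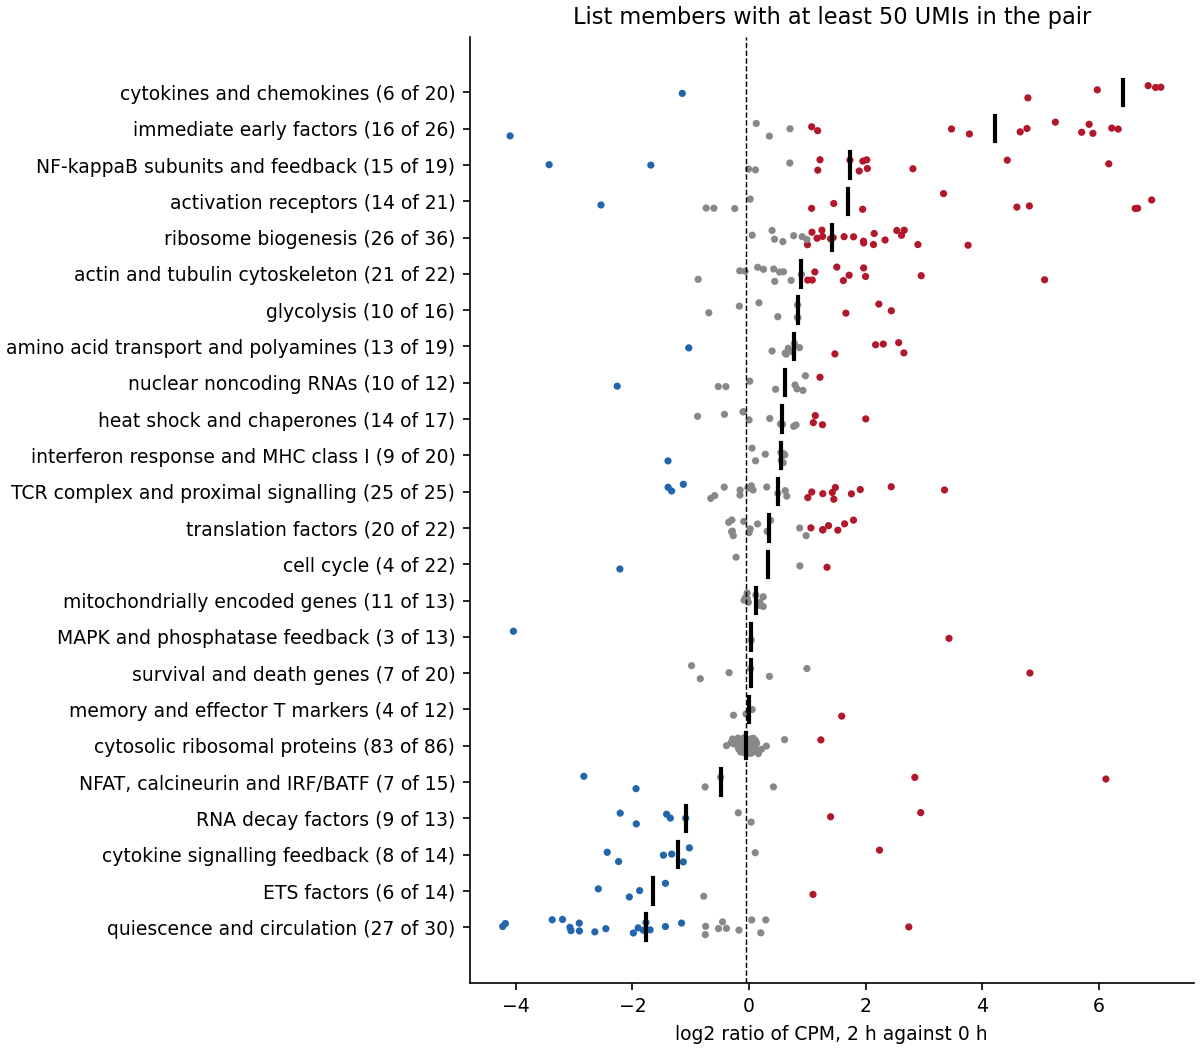
Log2 ratio of CPM at 2 h against 0 h (x axis) for the members of 24 gene lists that reached 50 UMIs in the pair, 1 point a gene, with the number counted of the number listed in brackets, black bars at list medians and a dashed line at the median of all counted genes (−0.05). List medians run from 6.40 for cytokines and chemokines to −1.77 for quiescence and circulation. The higher cytokine and chemokine members reached 50 UMIs only through their 2 h level.

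The 15 lowest ratios among genes that reached 100 UMIs hold 10 genes that belong to none of the lists. Vps37b, an endosomal sorting subunit, had 917 UMIs at 0 h and 90 at 2 h (1254 and 119 CPM, log2 −3.40, interval −3.73 to −3.09). Rflnb, a filamin-binding protein, had 159 and 9 UMIs (log2 −4.20), Arl4c, a small GTPase, 114 and 8 (log2 −3.89), and Ifngr1, a chain of the interferon gamma receptor, 303 and 39 (log2 −3.01, interval −3.53 to −2.53). The ranking fixed that their 0 h level lay above that of 2 h, but it did not set the later times. All 15 were highest at 0 h among the 5 times, and 14 were lower still at 8 h than at 2 h. Maf1, a repressor of RNA polymerase III, was the exception, at 17.1 CPM at 2 h and 31.0 at 8 h.

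The 15 highest ratios were less uniform over time. Of these genes, 10 peaked at 2 h, 3 at 4 h (Cd160, Ccl4 and Crtam) and 2 at 6 h (Xcl1 and Bcl2a1b). Ubash3b, a phosphatase that damps receptor signalling, had 5 and 184 UMIs (log2 5.15, interval 3.90 to 6.79), and Slamf7, a self-binding surface receptor, 0 and 109 (a log2 ratio of at least 5.13).

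**Figure D5:**
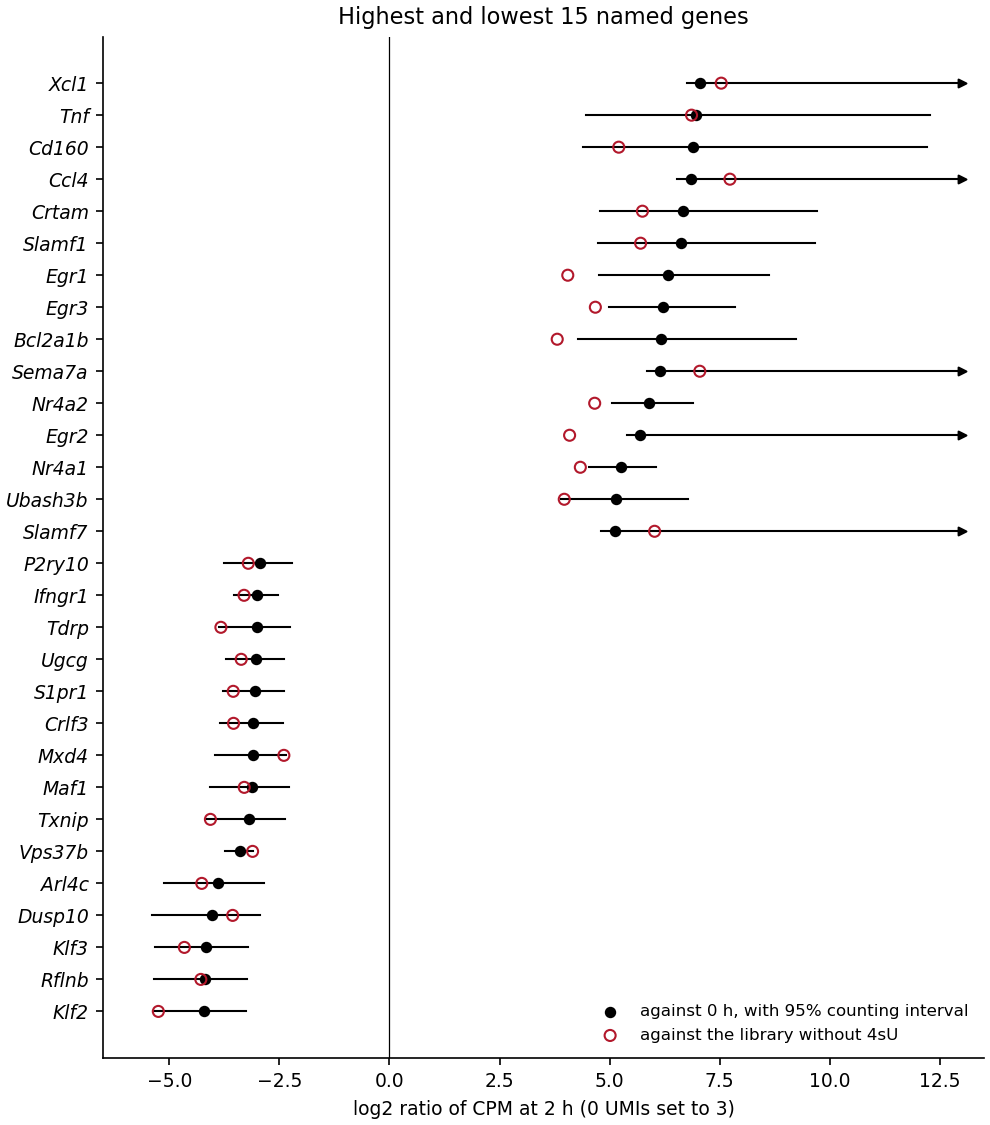
Log2 ratio of CPM at 2 h (x axis) for the 15 highest and 15 lowest named genes, against 0 h (black points, bars for 95% counting intervals, arrows where no upper bound exists, 0 UMIs set to 3) and against the library without 4sU (open circles). All 30 genes keep their direction with either control library, and Egr1 moves from 6.33 to 4.05. The genes were picked for their large ratios against 0 h and the 2 h library is the same in both, so the kept direction is no test.

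The choice of control library changed the size of some ratios. Egr1 had 19.9 CPM in the library without 4sU against 4.10 at 0 h, and Egr2 12.5 CPM against 0, so their ratios at 2 h were smaller against it (log2 4.05 and 4.09). Klf2 had 451 CPM there and 222 at 0 h, so its ratio was larger (log2 −5.25). Of 101 named genes at least 2-fold apart between 0 h and 2 h, 10 stood under 2-fold in the same direction against the library without 4sU, namely Nkg7, Eif4e, Hsp90aa1, Rpl7l1, Snhg3, Hspa9, Cct3, Pfkl, Irf7 and Ikzf2. By number of genes, 376 were higher and 1179 lower at 2 h against that library.

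ETS factors, the family of Fli1, had a lower summed level at 2 h. The 14 genes summed to 1255 CPM at 0 h and 553 CPM at 2 h, and of 6 with at least 50 UMIs 4 were lower and 1 higher (median log2 −1.66). Elf2 reached 50 UMIs only through its 0 h level. With 6 counted members, nothing is read about the family from these counts beside 17.7% lower and 12.3% higher over all counted genes. Fli1 (ENSMUSG00000016087), an ETS factor of blood cells whose target genes the study's title places lower in activation, had 124 and 31 UMIs (169.6 and 40.8 CPM, log2 −2.05, interval −2.67 to −1.48) and then 7.99, 12.6 and 11.3 CPM at 4, 6 and 8 h. Ets1, a factor of T cell development, went from 399 to 69 (log2 −2.59, interval −2.98 to −2.21), Elf1 stood at 189 and 69.8 CPM (log2 −1.43) and Elf2 at 62.9 and 17.1 (log2 −1.88). Elk4, a serum response cofactor, stood at 94.4 and 202 CPM (log2 1.09, interval 0.68 to 1.53) and was back at 94.8 CPM at 4 h.

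Proximal signalling genes of the T cell receptor were mostly higher or near their 0 h level. The 25 genes, all with at least 50 UMIs, summed to 7970.4 and 11240.2 CPM, with 10 higher and 3 lower (median log2 0.49). Beside 12.3% higher and 17.7% lower over all counted genes, nothing is read from the number of lower members. Lcp2 (SLP-76), the adaptor that assembles the signalling complex, stood at 52.0 and 529.5 CPM (log2 3.35, interval 2.87 to 3.87), Zap70, the kinase that binds the receptor, at 123 and 461 (log2 1.91), and Lat, its membrane substrate, at 204 and 557 (log2 1.45). Among the 3 lower genes were Cd247, the zeta chain (369 and 141 CPM, log2 −1.39), and Prkcq, protein kinase C theta (138 and 63.2 CPM, log2 −1.13). Receptor chains themselves differed, with Trac at 265 and 713 CPM (log2 1.43) and Trbc2, Cd3d and Cd3e at log2 0.07, −0.16 and 0.62.

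Cytokine receptor signalling genes were mostly lower. The 14 genes summed to 1648 and 760.1 CPM. Of 8 with at least 50 UMIs 6 were lower and 1 higher, beside 17.7% lower and 12.3% higher over all counted genes. The paired STAT5 genes, which carry the IL-2 and IL-7 signal, stood at 178 and 32.9 CPM for Stat5a (log2 −2.43, interval −3.11 to −1.81) and 423 and 89.6 for Stat5b (log2 −2.24, interval −2.64 to −1.86). Stat5a was higher again at 4 h (76.5 CPM), whereas Stat5b stood at 49.1 CPM. Socs1, the feedback inhibitor of JAK kinases, stood at 12.3, 58.0 and 14.8 CPM at 0, 2 and 4 h, highest at 2 h (log2 2.24, interval 1.18 to 3.46).

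RNA decay factors had nearly equal sums, 1049 and 955 CPM over 13 genes. Of 9 counted, 2 were higher and 5 lower, beside 12.3% higher and 17.7% lower over all counted genes. Zfp36l1 and Zfp36l2 encode related proteins that bind AU-rich elements and speed the decay of cytokine messages. Zfp36l1 stood at 56.1 and 431 CPM (log2 2.94, interval 2.47 to 3.45) and Zfp36l2 at 213 and 46.1 (log2 −2.21, interval −2.78 to −1.67). Among subunits of deadenylases, Cnot6 stood at 111 and 29.0 CPM (log2 −1.93) and Pan3 at 179 and 67.2 (log2 −1.42), both lower, while Cnot1, the scaffold of the CCR4-NOT complex, stood at 109 and 96.2 (log2 −0.19).

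Ribosome biogenesis, the assembly of new ribosomes in the nucleolus, stood at 1904 CPM at 0 h and 4712 CPM at 2 h over 36 genes (2.48-fold), and went on to 9932, 11092 and 11929 CPM. Of 26 with at least 50 UMIs, 19 were higher and 0 lower (median log2 1.42), beside 12.3% and 17.7% over all counted genes. Of the 19, Rrp1b, Nop2, Gnl3, Gar1, Rrp9, Mrto4, Nolc1, Nip7 and Dkc1 reached 50 UMIs only through their 2 h level. For these the minimum fixed the direction, whereas the sum over all 36 genes does not depend on it. Nolc1, a nucleolar scaffold, stood at 27.4 and 167 CPM (log2 2.61, interval 1.93 to 3.37), Ddx21, a nucleolar helicase, at 82.1 and 320.1 (log2 1.96), and Ncl, nucleolin, at 339 and 760.1 (log2 1.16). Npm1, nucleophosmin, was less than 2-fold apart at 2 h (369 and 499 CPM) and stood at 1511 CPM at 4 h. The ribosomal proteins themselves had 1 of 83 counted genes higher and 0 lower (median log2 −0.05); the 1 was Rpl7l1, a paralogue with a role in ribosome assembly, at 31.5 and 73.8 CPM.

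Translation factors followed with a smaller shift, 7 higher and 0 lower of 20 counted (median log2 0.34), beside 12.3% and 17.7% over all counted genes. The initiation helicase Eif4a1 stood at 315 and 1087 CPM (log2 1.79, interval 1.58 to 2.01) and Eif5a, the factor modified with hypusine, at 317 and 910.2 (log2 1.52) before reaching 3069.7 CPM at 4 h. Elongation factors had log2 ratios of −0.27 (Eef1a1) and −0.29 (Eef2).

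Amino acid transport and polyamine genes had 5 higher and 1 lower of 13 counted (median log2 0.78, sums 1440.1 and 3006 CPM). Over all counted genes 12.3% were higher and 17.7% lower. Srm, spermidine synthase, stood at 23.2 and 146 CPM (log2 2.65), Odc1, the rate-limiting enzyme of polyamine synthesis, at 243 and 674 (log2 1.47, interval 1.22 to 1.72), and Slc7a1, an arginine transporter, at 24.6 and 121 (log2 2.30). The related transporters for neutral amino acids diverged: Slc38a1 had a log2 ratio of 2.56 (interval 1.99 to 3.18) and Slc38a2 of −1.03. In glycolysis 3 of 10 counted genes were higher and 0 lower, namely Pfkfb3, which makes the activator of phosphofructokinase (21.9 and 119 CPM, log2 2.44), Ldha, lactate dehydrogenase (90.3 and 422, log2 2.22), and Pgam1 (log2 1.66). Heat shock proteins and chaperones had 4 higher and 0 lower of 14 counted, led by Hspa5 (BiP), the chaperone of the endoplasmic reticulum, at 54.7 and 219 CPM (log2 2.00). The other 3, Hsp90aa1, Hspa9 and Cct3, were under 2-fold against the library without 4sU. Shares of the glycolysis and chaperone members counted as higher stand beside 12.3% over all counted genes, on few genes each, and nothing is read from them.

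Actin and tubulin genes, which build the contact with an antigen-presenting cell, took up the most UMIs of any group that was higher at 2 h. The 22 genes summed to 18353 and 37079.5 CPM (2.02-fold), with 10 higher and 0 lower of 21 counted. Actb, cytoplasmic beta actin, went from 2708 to 11218 UMIs (3703 and 14777 CPM, log2 2.00, interval 1.94 to 2.06) and was seen in 68.2% and 95.2% of barcodes. Pfn1, profilin, stood at 351 and 1370.0 CPM (log2 1.96), Lcp1, an actin bundler of leukocytes, at 68.4 and 528 (log2 2.95, interval 2.52 to 3.40), and Tuba1c, an alpha tubulin, had 4 and 139 UMIs (log2 5.06). Tmsb4x, which sequesters free actin, stayed at 1344 and 1282 CPM (log2 −0.07, interval −0.20 to 0.06). Actin and tubulin genes have many similar copies, so their split between copies is uncertain.

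Interferon and MHC class I genes had 0 higher and 1 lower of 9 counted, the 1 being Tap1, a peptide transporter (65.6 and 25.0 CPM, log2 −1.39). The light chain B2m stood at 1385 and 2076 CPM (log2 0.58), under 2-fold. With 9 and 7 counted members, the interferon list and the survival list that follows are too short to be set apart from the 12.3% higher and 17.7% lower over all counted genes. Survival and death genes had 1 higher and 0 lower of 7 counted, namely Gadd45b, an inducible stress and p38 regulator (5 and 146 UMIs, log2 4.81, interval 3.56 to 6.46), while Bcl2 stood at 109 and 217 CPM (log2 0.99). In the cell cycle list only 4 of 22 genes had 50 UMIs, and the D cyclins that pair with CDK4 and CDK6 in early G1 went apart: Ccnd2 stood at 86.2 and 217 CPM (log2 1.33, interval 0.91 to 1.78) and Ccnd3 at 361 and 77.7 (log2 −2.22, interval −2.65 to −1.80). Among nuclear noncoding RNAs Snhg3, a snoRNA host transcript, was the 1 counted as higher (30.1 and 69.8 CPM, log2 1.21). Neat1, the scaffold of paraspeckles, was the 1 counted as lower, at 133 and 27.7 CPM (log2 −2.26, interval −3.02 to −1.57), and Malat1 had a log2 ratio of 0.79. Mitochondrially encoded genes had 0 of 11 counted genes higher or lower.

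The 15 B cell markers summed to 84.8 and 89.6 CPM, with Cd79b and Pax5 at 0 UMIs in both libraries, and 55 and 30 barcodes had a UMI of any of them. Ighm, the immunoglobulin mu heavy chain, carried most of the 0 h sum and stood at 72.5 and 30.3 CPM (log2 −1.26). Without Ighm the other 14 markers went the other way, with sums of 12.3 CPM at 0 h and 59.3 CPM at 2 h. Of the 15 markers, 6 had a UMI at 0 h and 9 at 2 h. Ms4a1, H2-Aa, H2-Ab1, H2-Eb1 and Igkc had 0 UMIs only at 0 h, whereas Cd79a and Ly6d had 0 only at 2 h. Only 4 of the 30 barcodes at 2 h held 2 or more of the 68 marker UMIs, against 6 of the 55 at 0 h with 62 UMIs. Many of the 2 h UMIs thus came from few barcodes. Myeloid and dendritic markers summed to 131 and 104 CPM with S100a8 and C1qa at 0, and 7 regulatory T markers to 131 and 133 CPM with Foxp3 at 0. Among the latter Ikzf2 (Helios) stood at 76.6 and 29.0 CPM (log2 −1.40) and Izumo1r (folate receptor 4) at 38.3 and 69.8 (log2 0.87). The part of such cells in the ratios was not tested. Pecam1, shared by endothelium and naive lymphocytes, carried nearly all of the stromal, endothelial and red cell sum and stood at 84.8 and 21.1 CPM, while haemoglobin genes had 0 UMIs in both. Without barcodes that had a B cell or myeloid marker UMI, 378 genes were higher and 504 lower.

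The CD4 and CD8 lineages could be told apart only in part. A barcode with a Cd4 UMI and no Cd8a or Cd8b1 UMI was taken as CD4-marked and the reverse as CD8-marked, which gave 38 and 211 barcodes at 0 h and 24 and 212 at 2 h, with 1528 and 1760 unclassed. In the CD8-marked barcodes of the 2 h library Ccl4 had 79 UMIs (758 CPM, interval 600 to 944) and Xcl1 77 (738 CPM, interval 583 to 923), with 0 of either at 0 h. The CD4-marked barcodes at 2 h held 10487 UMIs in all, with 0 of Ccl4 (interval 0 to 352 CPM) and 3 of Xcl1 (286 CPM, interval 59.0 to 836). Early factors were seen in both classes, Nr4a1 with 14 UMIs in CD4-marked (1335 CPM, interval 730 to 2240) and 70 in CD8-marked barcodes (671 CPM, interval 523 to 848), and Klf2 in CD8-marked barcodes stood at 220 CPM at 0 h (25 UMIs) and 19.2 CPM at 2 h (2 UMIs).

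Detection of pairs of genes in the same barcodes was read in the thinned 2 h library. There Ccl4 was seen in 19 of 120 barcodes with an Xcl1 UMI (15.8%, exact binomial interval 9.81 to 23.6) and in 108 of 1546 without (6.99%, interval 5.77 to 8.37). For the other pairs read the intervals overlapped. Crtam was seen in 8.33% of barcodes with an Xcl1 UMI (interval 4.07 to 14.8) and in 5.30% without (interval 4.24 to 6.54). Tnf was seen in 5.51% with a Ccl4 UMI (interval 2.24 to 11.0) and in 3.25% without (interval 2.42 to 4.26). Egr3 was seen in 9 of 101 barcodes with an Egr1 UMI (8.91%, interval 4.16 to 16.2). Without one it was seen in 135 of 1565 (8.63%, interval 7.28 to 10.1). Nr4a1 shares with and without an Egr1 UMI were 16.8% and 14.1%. Nr4a3 shares with and without a Nr4a1 UMI were 25.3% and 21.7%. All these barcodes come from 1 library, so the shares describe that library.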

How the data were processed

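Single-cell 3′ end libraries of mouse lymph node T cells were read from filtered matrices with 32285 features. The deposited values are UMI counts per gene and barcode, written by cellranger 7.2.0 per the file headers, with no normalization. The submitters' processing notes name the builds mm10 and GRCh38, and mapping settings are not given in the sources used here. Matrices do not separate 4sU-labelled from unlabelled RNA, so new RNA was not analysed here.

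UMIs were summed per library and expressed as CPM. Ratios carry exact conditional binomial intervals, levels exact Poisson intervals and shares exact Clopper-Pearson intervals, all at 95% and computed with Python 3.11.15, numpy 2.4.6, scipy 1.17.1 and pandas 2.3.3. Figures were drawn with matplotlib 3.10.9. Counting error is small for abundant genes, but at 731209 and 759152 UMIs per library 1 UMI is worth 1.37 CPM at 0 h and 1.32 CPM at 2 h. The counting and interval steps were tested on simulated data. No doublet caller was run, and a setting without the 5% of barcodes with the most UMIs stands in for one. All barcodes of the filtered matrices were kept in the main values.

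Groups came from the sample labels and the stimulation from the series' design text. Named genes are Egr1, Tnf, Klf2 and Fli1, the 15 highest and 15 lowest ratios among genes that reached 100 UMIs in the pair (unnamed models and mitochondrial genes left out), and up to 4 members of each of 30 lists with the largest absolute ratio and at least 30 UMIs. The rule gives 121 genes. Other genes named in the text, such as Nr4a3, Ccr7, Lef1, Klf6, Gimap5 and Cd69, are list members chosen after their values were seen. Textbook knowledge gave the hand-written lists, except cytosolic ribosomal proteins and mitochondrial genes, which were taken by symbol. They hold 589 measured genes, 212 of them with fewer than 50 UMIs in the pair, and 1 more is not in the features. The comparison, its members and the lists were chosen with earlier results of these data known. Promoter motifs were not analysed here. Some list members are not reported here.

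Alternatives covered the scaling, the least number of UMIs, the value in place of 0, the barcodes kept, their weight and the control library. Leaving out barcode names shared by libraries, and drawing the library without 4sU down to the 2 h total, were chosen after seeing the data.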

Additional observations from a re-analysis of the deposited data

How the results depend on the processing

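The counts of genes at least 2-fold higher (391) and lower (564) at 2 h depended mostly on the least number of UMIs. With at least 30 UMIs in the pair 875 genes were lower, with at least 100 UMIs 222 were higher and 225 lower, and with no minimum 2854 were higher and 4440 lower. Against the library without 4sU 376 genes were higher and 1179 lower, of which 267 and 491 were the same genes as against 0 h, and the median log2 ratio of all counted genes was −0.34 in place of −0.05. The other settings gave 360 to 563 higher and 484 to 597 lower genes.

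Between the library without 4sU and the 0 h library 253 genes were at least 2-fold apart, and 451, 88 and 3470 with minima of 30, 100 and none, or 155 after drawing down its depth. Its split was 132 higher and 58 lower with the median ratio set to 0.

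The share of barcodes with an early factor UMI depended on depth, at 13.4% and 19.2% for 0 h and 63.7% and 75.7% for 2 h after thinning to 200 and 300 UMIs. Of the 121 named genes, 83 stayed within their counting interval against the library without 4sU, 37 moved outside it and 1, Gm26917, which is at least 2-fold apart in the 0 h comparison, turned from a log2 ratio of 1.08 (interval −0.05 to 2.33) to −0.77. The cause was not tested. Of the named genes under 2-fold apart from 0 h, 8 had the opposite sign against that library, namely Snhg1, mt-Co1, mt-Co2, mt-Co3, mt-Nd5, Ly6c2, Ccl5 and Dusp5. Each other setting moved at most 2 named genes outside their interval. List medians stayed within the SD of their members for 22 of 24 lists against that library, all but ribosomal proteins and mitochondrially encoded genes, and for all 24 with the median ratio set to 0. Minima of UMIs do not alter the ratio of a single gene. No paired analysis was possible because each time has 1 library. For the same reason no replicate could be left out. Depth limits mostly genes with few UMIs, such as Il2, Ifng and Fos.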
